A study of Homo sapiens with 4 samples.

Results

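Tetraspanin genes were examined for chromatin accessibility in TMD8, an established diffuse large B cell lymphoma line whose labels give the cell type as ABC (activated B cell-like). The family was taken as a list of 29 named genes. A member interval was any counted genomic interval whose midpoint lay inside the body of one of these genes, or failing a gene body, whose nearest protein-coding gene end within 100 kb belonged to one of them. This gave 158 of the 73135 intervals of the series, at 25 of the 29 genes; TSPAN6, TSPAN8, TSPAN10 and TSPAN19 had no interval. The study compared 2 control libraries, from TMD8 cells given a scrambled short hairpin RNA (shRNA), with 2 libraries from TMD8 cells given an shRNA against IRF4 (shIRF4), a transcription factor of B cells and plasma cells. The assay was ATAC-seq: a transposase inserts adapters into open chromatin of intact nuclei, so that the number of reads in an interval reports how accessible it is. The 4 libraries held 9112860 to 17954924 counts in intervals, and the shIRF4 pair held both extremes (17954924 in replicate 1 and 9112860 in replicate 2). The sample titles say shIRF4 and the library names siIRF4. Nothing in the sources used here gives the shRNA sequences, their promoter or the time of treatment. All 4 libraries share 1 cell line, and nothing in the labels says that they came from separate cultures, so p-values measure the spread between these libraries, which may be technical. Accessibility at the IRF4 gene does not measure its RNA or protein, and the silencing itself was not checked here.

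Tetraspanins are small membrane proteins that cross the membrane several times and bind one another and other proteins, forming patches in which receptors, integrins and proteases are held together. CD81 is found on many cell types, B cells among them, CD37 and CD53 are restricted to leukocytes, and CD63 marks late endosomes and exosomes. A subgroup known as TspanC8 (TSPAN5, TSPAN10, TSPAN14, TSPAN15, TSPAN17 and TSPAN33) brings the protease ADAM10 to the surface, and TSPAN33 is known as a marker of activated B cells.

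Promoter sequences are shown for the members whose start sites the comparison turns on. RefSeq promoter windows (GRCh38.p14, 250 bases before to 50 bases after an annotated start) were found for 21 of the 29 members, 41 windows in all (none for CD37, CD81, CD151, TSPAN3, TSPAN7, TSPAN9, TSPAN18 and TSPAN32), and the windows below are printed 5′ to 3′ on the plus strand with motif matches in capitals. The TSPAN33 window lies inside the only promoter interval of the family that passed the test. The CD82 window lies inside the promoter interval with the highest signal per kb among members. The pair of CD53 windows shows an upstream start outside every interval, with an octamer in capitals, and a start inside an interval that was not called.
TSPAN33 chr7:129144457-129144756: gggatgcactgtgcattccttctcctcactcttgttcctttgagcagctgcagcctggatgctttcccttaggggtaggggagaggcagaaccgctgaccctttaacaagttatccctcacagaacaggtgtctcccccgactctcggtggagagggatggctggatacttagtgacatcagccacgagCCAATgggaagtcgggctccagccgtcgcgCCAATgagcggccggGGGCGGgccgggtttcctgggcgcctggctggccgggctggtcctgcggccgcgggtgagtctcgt
CD82 chr11:44565413-44565712: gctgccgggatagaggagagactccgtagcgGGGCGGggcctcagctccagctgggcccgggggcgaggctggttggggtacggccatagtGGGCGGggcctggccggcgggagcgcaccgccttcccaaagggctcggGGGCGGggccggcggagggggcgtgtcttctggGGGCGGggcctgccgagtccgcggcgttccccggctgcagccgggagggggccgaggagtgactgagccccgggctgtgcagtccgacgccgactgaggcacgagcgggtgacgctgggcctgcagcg
CD53 chr1:110870960-110871259: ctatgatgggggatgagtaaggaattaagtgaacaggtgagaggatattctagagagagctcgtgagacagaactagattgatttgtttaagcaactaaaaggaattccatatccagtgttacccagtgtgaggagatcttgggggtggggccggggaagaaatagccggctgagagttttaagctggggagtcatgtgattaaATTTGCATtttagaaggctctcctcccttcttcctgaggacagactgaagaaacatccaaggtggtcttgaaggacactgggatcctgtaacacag
CD53 chr1:110872898-110873197: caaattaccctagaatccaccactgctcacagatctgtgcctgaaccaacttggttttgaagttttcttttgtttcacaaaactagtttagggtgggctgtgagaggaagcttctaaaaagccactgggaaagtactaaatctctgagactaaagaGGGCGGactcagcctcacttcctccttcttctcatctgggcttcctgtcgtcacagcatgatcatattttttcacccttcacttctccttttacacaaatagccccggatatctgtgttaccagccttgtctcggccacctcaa
In the TSPAN33 window the capitals mark 2 CCAAT matches, at positions 190 and 220, and 1 GC box (GGGCGG) at position 235, counted from the first printed base. The CD82 window carries 4 GC boxes and has a GC content of 76.7%, against 62.7% in the TSPAN33 window and 45.7% and 45.3% in the upstream and downstream CD53 windows. The octamer (ATGCAAAT, here on the opposite strand) starts at position 205 of the upstream CD53 window, and a GC box at position 157 of the downstream one.

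Both strands of all windows were searched for 9 motifs, of which CCAAT and the GC box were added after the first 7 had given few matches. The interferon-stimulated response element bound by IRF factors (GAAA, then GAAA after any 2 bases) was found in 1 of the 41 member windows, at TSPAN8, and in 3.57% of all 35116 windows. No member window held the ETS-IRF composite element (GGAA, then GAAA after any 2 bases, 2.82% of all windows), either AP-1-IRF composite element (TTTC, then TGANTNA after any 4 bases, 0.29%, and GAAA directly before TGANTNA, 0.436%), the ETS motif CCGGAAGT (4.14%) or the NF-kB motif (GGG, then TTTCC after any 2 bases, 1.91%). The octamer was found in 2 member windows, at CD53 and TSPAN13, and in 1.77% of all. CCAAT lay in 9 of the 41 and in 34.6% of all, and the GC box in 26 of the 41 and in 45% of all. The 41 windows are not separate, since several share a gene and some overlap. By gene, CCAAT lay at 9 of 21 members and the GC box at 15 of 21, with no share over all genes given. The ETS-IRF element and the response element can overlap each other. A match is a description of these letters, and the distal intervals, whose sequences were not analysed here, are not covered by it.

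Across the family 17 intervals rose and 10 fell in shIRF4 against control, and 131 of the 158 were not called. The calls are from edgeR's quasi-likelihood test with Benjamini-Hochberg adjustment over all 73028 tested intervals, at a threshold of 0.05; all 158 member intervals passed the filter on low counts. The background over all tested intervals was 15.5% lower and 7.26% higher, whereas the members had 6.33% lower and 10.8% higher. With library totals as the only scaling, 13.6% of all intervals were lower and 9.83% higher, and of the members 8 were lower and 21 higher. The median log2 fold change was 0.11 over the members and 0.01 over all intervals, and it was positive in 65.2% of the members and 51.3% of all. The libraries of the groups did not overlap at 80 of the 158 intervals, or 50.6%, where the background was 59% of all intervals. Other settings moved the counts. DESeq2 called 2 member intervals lower and 4 higher, with 5.07% and 1.17% of all intervals, and the edgeR test against a 1.5-fold change 0 and 1, with 3.31% and 0.639%. Scaling each library by its local level along the chromosome gave 10 lower and 17 higher (13.9% and 8.27% of all), and a term for the replicate number, the replicate block, 10 and 18 (15.6% and 7.1% of all). Higher calls did not outnumber lower ones in every run with 1 library left out. There were 8 lower and 8 higher without control replicate 1 (10.5% and 3.96% of all), and 6 and 6 without shIRF4 replicate 1 (8.77% and 3.61% of all). Without control replicate 2 there were 6 and 11 (11.1% and 3.88% of all), and without shIRF4 replicate 2 there were 12 and 23 (18% and 9.36% of all). At an unadjusted p under 0.05 the edgeR counts were 11 lower and 28 higher. No share over all intervals at that threshold is given, so these counts have nothing to be set against. These 158 intervals are not independent of one another, since several share a gene, and TSPAN9 alone held 26; without it 12 rose and 8 fell of 132.

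Called intervals lay at 13 of the 25 genes, 7 of them with higher intervals only (CD9, TSPAN3, TSPAN5, TSPAN11, TSPAN15, TSPAN32 and TSPAN33), 4 with lower intervals only (CD53, TSPAN2, TSPAN14 and TSPAN18) and 2 with both (CD82 and TSPAN9). The other 12 genes had none: CD37, CD63, CD81, CD151, TSPAN1, TSPAN4, TSPAN7, TSPAN12, TSPAN13, TSPAN16, TSPAN17 and TSPAN31. A gene with more intervals has more occasions for a call: TSPAN9 had 26 and CD82 19, TSPAN1 and TSPAN13 1 each. The share of all genes with a called interval is not given, so the count of genes describes this list only. The plot of all member intervals by gene shows that most genes with a called interval also held intervals close to 0.

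**Figure D1:**
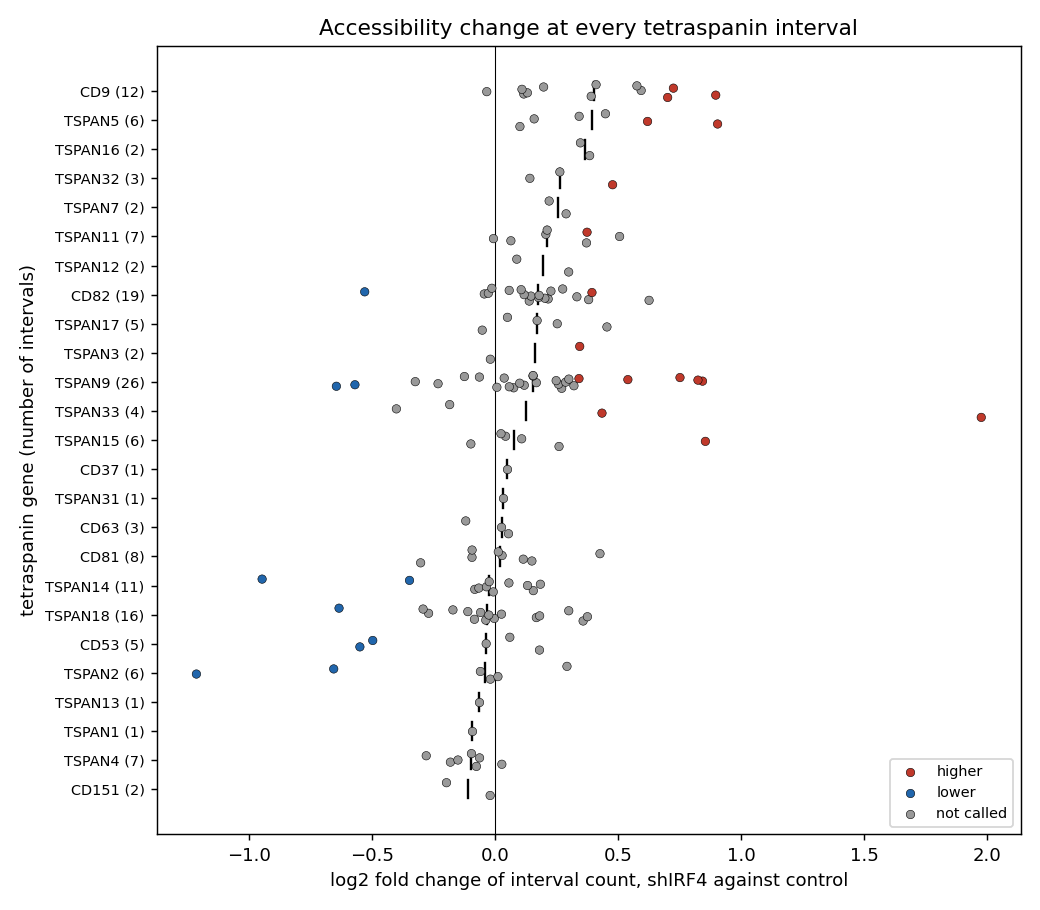
Log2 fold change of the interval count, shIRF4 against control, for each of the 158 member intervals (points), by gene; the black tick is the median of the gene's intervals and the number in brackets how many it has. Red points (17) were called higher and blue points (10) lower by edgeR; the highest, at 1.98, lies upstream of TSPAN33.

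Of 16 member intervals over a RefSeq promoter window, at 14 genes, edgeR called 1 higher (TSPAN33) and 0 lower. Over all 9858 promoter-window intervals the background of edgeR calls was 3.97% lower and 4.7% higher. At an unadjusted p under 0.05 there were 2 higher and 0 lower, and DESeq2 called 1 higher and 0 lower. For the unadjusted and DESeq2 counts no share over all promoter-window intervals is given. The remaining 142 member intervals held 16 of the higher (11.3%) and all 10 of the lower calls (7.04%), where the background off promoter windows was 7.66% higher and 17.3% lower. By position, 112 lay in a gene body, with 8 lower and 13 higher (14.9% and 7.05% of all intervals in gene bodies). The other 46 lay outside, with 2 lower and 4 higher (14.2% and 7.44% of all intervals assigned from outside a body). Exons and introns were not told apart, and a position near a gene is no evidence that the interval acts on that gene.

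TSPAN33, the activated B cell marker of the TspanC8 subgroup, gained signal in front of its start and at it. The upstream interval, on chromosome 7 (129136992 to 129137590, 7416 bp before the gene), held 3.10 and 2.53 CPM (the read count relative to the library size after TMM scaling) in the control libraries and 12.1 and 9.27 CPM in the shIRF4 libraries, from 37, 34, 223 and 85 reads. Both shIRF4 libraries stood far above both controls, with means of 2.82 ± 0.406 and 10.7 ± 2.00 CPM (SD, n = 2 each). The log2 fold change was 1.98 (SE 0.19, edgeR adjusted p = 9.67e-08), and this was the only 1 of the 27 called intervals that passed under every alternative tried, the test against a 1.5-fold change included.

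The interval over the TSPAN33 start (129144207 to 129146927), which holds the promoter window printed above, had 33.8 and 36.1 CPM in control and 48.0 and 46.3 CPM in shIRF4. The groups did not overlap, and the change was smaller than upstream, at a log2 fold change of 0.43 (SE 0.07, edgeR adjusted p = 0.000143). An interval at the other end of the gene (from 129168871) went the other way without passing the test, with 8.73 and 8.11 CPM in control, 6.13 and 6.76 CPM in shIRF4 and a log2 fold change of -0.40 (edgeR adjusted p = 0.0602). It was called lower, with an adjusted p of 0.0327, when libraries were scaled by their local level along the chromosome.

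**Figure D2:**
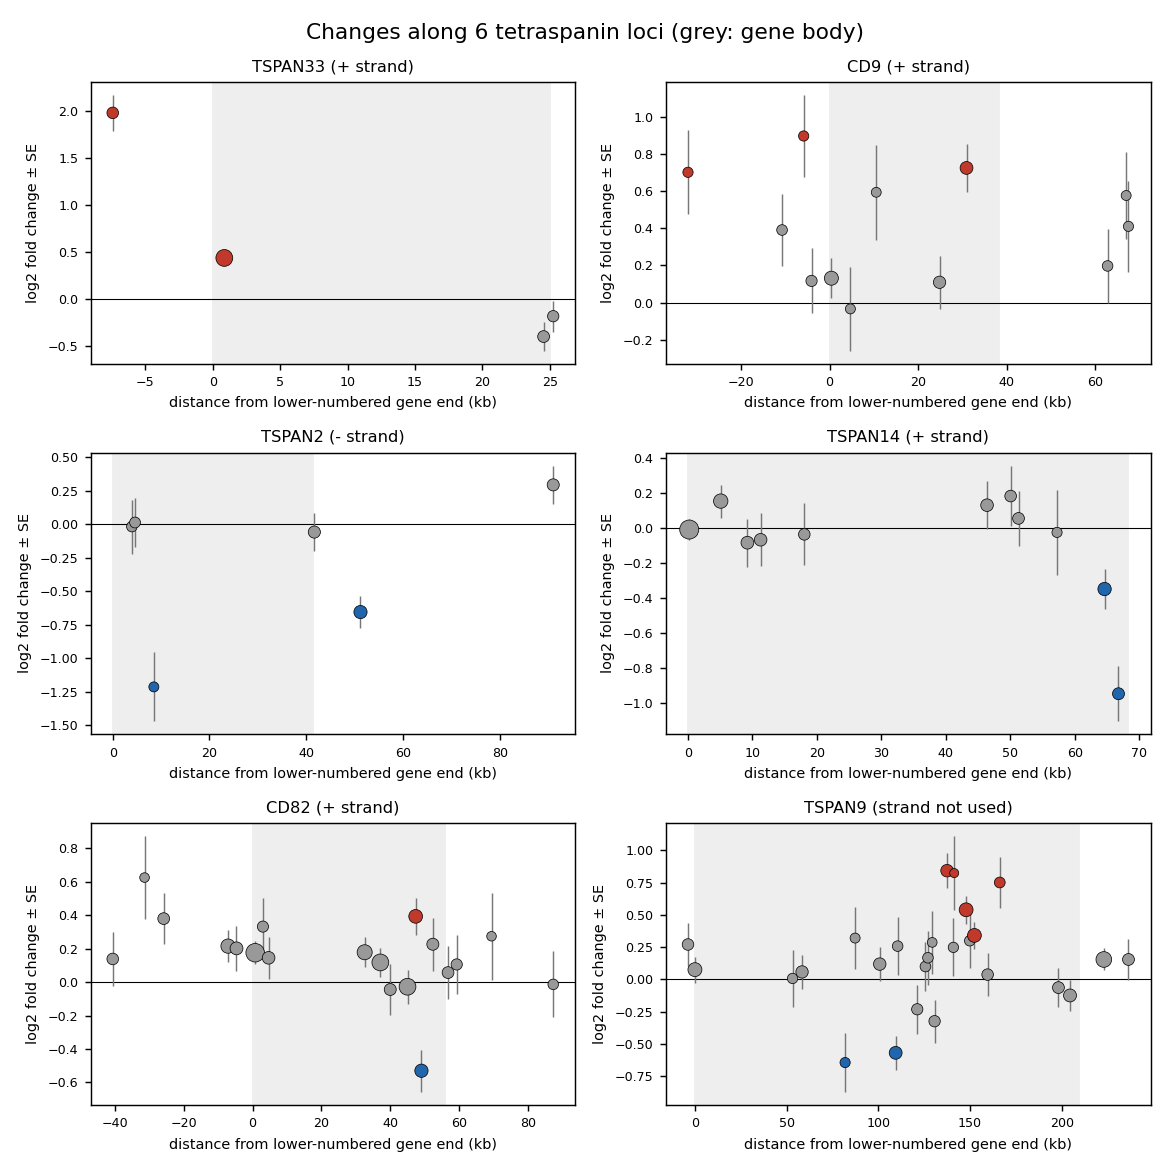
Log2 fold change of the interval count, shIRF4 against control, by distance along the gene for 6 members (grey band, gene body), each point 1 interval, larger where its mean CPM is higher, and each bar its SE; red is called higher, blue lower and grey not called. At TSPAN33 the highest point (1.98) lies upstream of the gene and the point over its start at 0.43; at CD82 and TSPAN9 higher and lower intervals lie within 1 gene.

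Among the other leukocyte tetraspanins, CD53 lost signal, TSPAN32 gained it, CD82 did both, and no interval of CD37 or CD81 was called. With TSPAN33 these genes held 40 intervals, 3 lower (7.5%, against 15.5% of all intervals) and 4 higher (10%, against 7.26% of all). Their median log2 fold change was 0.13.

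CD53 is a surface protein of most white blood cells. Its interval 83485 bp upstream on chromosome 1 (110787289 to 110788161) held 11.2 and 10.9 CPM in control and 7.38 and 7.75 CPM in shIRF4, a log2 fold change of -0.55 (SE 0.13, edgeR adjusted p = 0.00443). An interval in the gene body (110875017 to 110875974) held 12.3 and 16.4 CPM in control and 9.88 and 10.8 CPM in shIRF4, a log2 fold change of -0.50 (SE 0.13, edgeR adjusted p = 0.00912). In both the shIRF4 libraries were below the controls, but leaving out control replicate 2 ended the second call (log2 fold change -0.27, adjusted p = 0.364), as did leaving out shIRF4 replicate 1 (adjusted p = 0.122), which ended the first call too (adjusted p = 0.0646). The interval over the downstream start printed above (110872168 to 110873369) held 18.6 and 17.6 CPM in control and 18.6 and 16.1 CPM in shIRF4, so that the groups overlapped, with a log2 fold change of -0.04 (edgeR adjusted p = 0.847). The called body interval and 1 other also lie in the body of LRIF1 in the gene table, so that they are not CD53's alone.

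CD82, which organises membrane adhesion and signalling proteins, had called intervals of opposite sign only 757 bp apart in its body on chromosome 11. The first (44611200 to 44612404) held 14.1 and 13.7 CPM in control and 19.4 and 16.5 CPM in shIRF4, a log2 fold change of 0.39 (SE 0.11, edgeR adjusted p = 0.0113). The second (44613162 to 44613797) held 15.3 and 17.0 CPM in control and 12.3 and 9.27 CPM in shIRF4, a log2 fold change of -0.53 (SE 0.13, edgeR adjusted p = 0.00359). Neither pair of groups overlapped; the lower call held with each library left out, and the higher one was lost without control replicate 2 (adjusted p = 0.0935) or shIRF4 replicate 1 (0.26, adjusted p = 0.233). The promoter interval (44564326 to 44565990) held 59.7 and 59.0 CPM in control and 70.8 and 62.4 CPM in shIRF4, a log2 fold change of 0.18 that was not called (edgeR adjusted p = 0.0691). That interval was called higher without shIRF4 replicate 2 (0.25, adjusted p = 0.00139), with totals as the only scaling (adjusted p = 0.0246) and with robust dispersion (adjusted p = 0.0395).

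TSPAN32, a tetraspanin of blood cells, rose at an interval over the gene end at 2302013 on chromosome 11, which also lies in the body of C11orf21. Its interval (2301366 to 2302671) held 10.2 and 10.6 CPM in control and 15.4 and 13.1 CPM in shIRF4, with no overlap and a log2 fold change of 0.48 (SE 0.12, edgeR adjusted p = 0.00617). Leaving out control replicate 1 (adjusted p = 0.0573) or shIRF4 replicate 1 (adjusted p = 0.156) ended the call.

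CD37, the target of antibodies tried in B cell lymphoma, lies within 1 wide interval of 10394 bp on chromosome 19 (49333349 to 49343742), which covers the whole gene, a stretch of SLC6A16 and an end of TEAD2. It held 316 and 305 CPM in control and 323 and 319 CPM in shIRF4. Both shIRF4 libraries were slightly higher, with a log2 fold change of 0.05 (SE 0.05, edgeR adjusted p = 0.504). Because of its width the interval cannot tell CD37 from its neighbours. Its level per length, 30.4 CPM per kb, was below the 37.8 of the CD82 promoter, the 34.4 of the TSPAN3 gene-end interval and the 34.3 of the TSPAN14 gene-end interval, against a median of 12.7 over the members.

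The surroundings of CD37 were lower in shIRF4. Of 1069 other intervals within 2.5 Mb, 356 fell (33.3%) and 23 rose, and their median log2 fold change was -0.25. This shift was uneven between the shIRF4 libraries, at -0.35 in replicate 1 and -0.11 in replicate 2 against the control mean. Among the 81 of these intervals that were at least 5 kb wide, a width chosen after the data were seen, 44 fell and 1 rose, with a median of -0.20. Wide intervals were also lower over the whole series: of all 362, which include these 81, 192 fell and 10 rose, with a median of -0.19. When each library was scaled by the local level within 2.5 Mb, CD37 was called higher, with a log2 fold change of 0.27 (edgeR adjusted p = 0.000611). Its call therefore depended on that scaling. Around the other members with an interval the local median lay between -0.07 and 0.14.

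**Figure D3:**
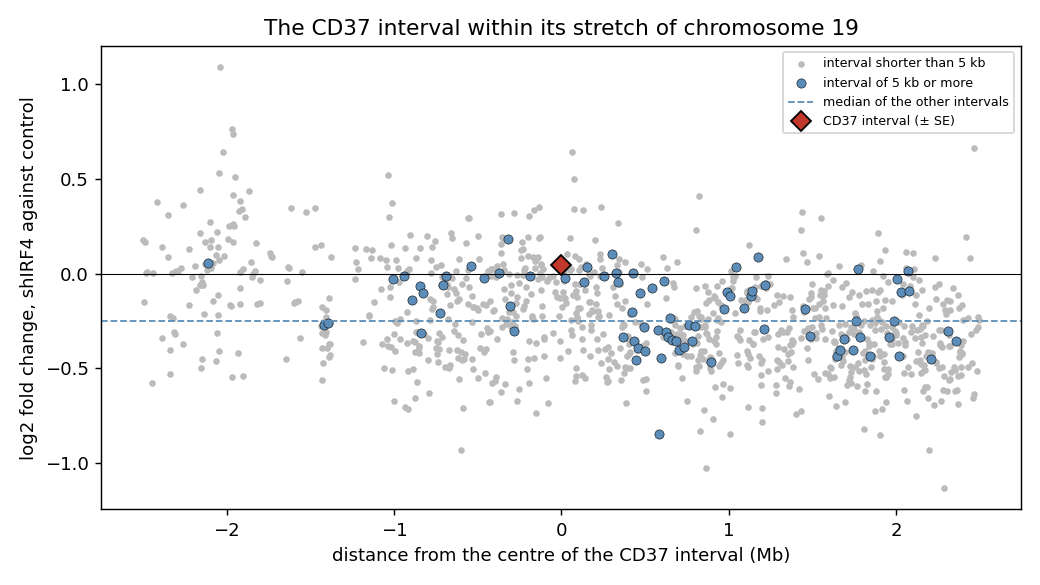
Log2 fold change of interval counts, shIRF4 against control, by distance from the CD37 interval, within 2.5 Mb on either side (red diamond with SE, CD37; blue points, other intervals of at least 5 kb; grey points, shorter ones; dashed line, median of the others). The surrounding 1069 intervals have a median of -0.25, and CD37 lies at 0.05.

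CD81, a tetraspanin of B cells and many other cells, had 8 intervals. None spanned a gene end or had its midpoint within 1 kb of one. The one nearest the gene end at 2376180 lay in the body (2376776 to 2378490). It held 22.6 and 25.6 CPM in control and 26.9 and 26.6 CPM in shIRF4. Its log2 fold change was 0.15 and was not called (edgeR adjusted p = 0.252). Across the 8 intervals log2 fold changes ran from -0.30 to 0.43. At an unadjusted p under 0.05, for which no share over all intervals is given, edgeR had 1 higher and 0 lower. edgeR called 0 of the 8 intervals, and DESeq2 called 0 as well. The highest of them (from 2390684 on chromosome 11, edgeR adjusted p = 0.0741) was called higher under local scaling, with an adjusted p of 0.0493. With the replicate block edgeR called it higher too (0.47, adjusted p = 0.0388).

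Of the broadly expressed tetraspanins CD9, CD63 and CD151, only CD9 had called intervals, and all 3 of those rose; whether CD9 differs from the others was not tested. The 3 genes held 17 intervals with a median log2 fold change of 0.13. The higher calls were 17.6% of these, against 7.26% of all intervals, and 0 were lower, against 15.5% of all. CD9, which acts in cell adhesion, motility and membrane fusion, had 12 intervals, 11 of them with a positive log2 fold change, and a median of 0.40.

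The CD9 body interval on chromosome 12 (6230601 to 6231205) held 9.14 and 8.26 CPM in control and 15.2 and 13.0 CPM in shIRF4, a log2 fold change of 0.72 (SE 0.13, edgeR adjusted p = 0.000222). An interval 5859 bp upstream (6193961 to 6194214) held 2.18 and 2.68 CPM in control and 4.72 and 4.25 CPM in shIRF4, a log2 fold change of 0.90 (SE 0.22, edgeR adjusted p = 0.0045). Another 32013 bp upstream (6167672 to 6168195) held 2.77 and 2.68 CPM in control and 4.94 and 3.49 CPM in shIRF4, a log2 fold change of 0.70 (SE 0.23, edgeR adjusted p = 0.0271). In all 3 every shIRF4 library was above every control, but only the body interval kept its call with each library left out. The interval 5859 bp upstream lost it without control replicate 1 (adjusted p = 0.0707) or shIRF4 replicate 1 (adjusted p = 0.0703). The one 32013 bp upstream lost it without control replicate 1 (adjusted p = 0.0975), control replicate 2 (adjusted p = 0.14) or shIRF4 replicate 1 (0.37, adjusted p = 0.481).

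At the ends of these genes the groups were close. The CD9 gene-end interval (6199554 to 6201140) held 15.6 and 18.4 CPM in control and 19.4 and 17.6 CPM in shIRF4, with overlap and a log2 fold change of 0.13 (edgeR adjusted p = 0.42). For CD63 the gene-end interval (55728208 to 55730453) held 34.2 and 32.1 CPM in control and 35.7 and 31.1 CPM in shIRF4, again with overlap, and a log2 fold change of 0.03 (edgeR adjusted p = 0.866). CD151, which binds laminin-receptor integrins, had 4.19 and 4.17 CPM in control and 4.02 and 2.95 CPM in shIRF4 at its gene-end interval on chromosome 11 (838419 to 838778). Both of its shIRF4 libraries were lower, mainly replicate 2, and the log2 fold change of -0.20 was not called (edgeR adjusted p = 0.555).

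The TspanC8 genes did not move one way. Their 32 intervals, at the 5 genes with an interval, included 5 higher calls (15.6%, at TSPAN5, TSPAN15 and TSPAN33) and 2 lower ones (6.25%, both at TSPAN14). Over all intervals 7.26% were higher and 15.5% lower. The median log2 fold change of the 32 was 0.10. TSPAN17 had 5 intervals and none called, and none of the 3 intervals of ADAM10 itself was called.

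TSPAN5 rose at 2 of its 6 intervals on chromosome 4. The interval from 98518301 to 98519196 held 9.31 and 9.60 CPM in control and 14.8 and 14.2 CPM in shIRF4, a log2 fold change of 0.62 (SE 0.12, edgeR adjusted p = 0.000531). The interval from 98482872 to 98483234 held 1.85 and 2.31 CPM in control and 3.85 and 4.04 CPM in shIRF4, a log2 fold change of 0.90 (SE 0.23, edgeR adjusted p = 0.00652). Neither overlapped between groups. With 1 library left out, the interval from 98518301 kept its call each time, and the interval from 98482872 lost it without control replicate 1 (0.76, edgeR adjusted p = 0.0941). DESeq2 called neither (adjusted p = 0.0536 and 0.193). All 6 TSPAN5 intervals had positive values, from 0.10 to 0.90, but other intervals within 2.5 Mb of the gene also had a positive median, 0.14. When libraries were scaled by their local level along the chromosome, the intervals from 98482872 and 98518301 stayed called, at 0.71 and 0.43. With that scaling the uncalled intervals from 98467598 and 98657977 were at -0.09 and -0.02.

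TSPAN14 fell at a pair of intervals 1157 bp apart near the downstream end of the gene on chromosome 10. The stronger (80520687 to 80521479) held 11.1 and 9.67 CPM in control and 4.89 and 6.22 CPM in shIRF4, a log2 fold change of -0.95 (SE 0.16, edgeR adjusted p = 0.000116). The other (80518319 to 80519529) held 14.3 and 16.4 CPM in control and 11.9 and 12.4 CPM in shIRF4, a log2 fold change of -0.35 (SE 0.12, edgeR adjusted p = 0.0324). The groups were apart in both, and the smaller call ended when control replicate 2 (-0.24, adjusted p = 0.401) or shIRF4 replicate 1 (adjusted p = 0.207) was left out, with totals as the only scaling (adjusted p = 0.067) and under local scaling (adjusted p = 0.0642). At the start of the gene the interval from 80453470 to 80455536 was nearly equal in all libraries, with 70.8 and 71.6 CPM in control and 71.1 and 70.5 CPM in shIRF4 (log2 fold change -0.01, edgeR adjusted p = 0.952). The TSPAN15 interval on chromosome 10 (69481450 to 69481635) rose from 1.76 and 1.49 CPM in control to 3.04 and 2.73 CPM in shIRF4, a log2 fold change of 0.85 (SE 0.26, edgeR adjusted p = 0.018). That call was lost without control replicate 1 (adjusted p = 0.0504), control replicate 2 (adjusted p = 0.178) or shIRF4 replicate 1 (adjusted p = 0.175).

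**Figure D4:**
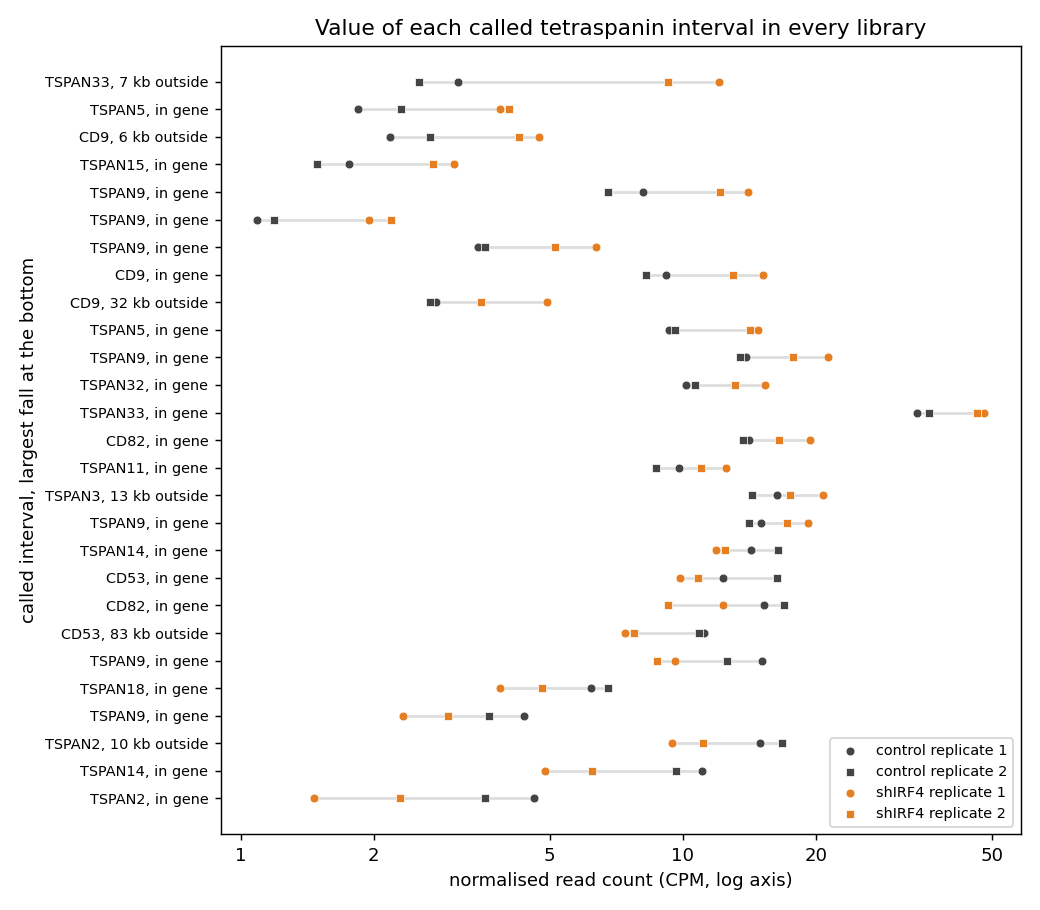
CPM in each library at the called member intervals, on a log axis, with controls in black and shIRF4 libraries in orange (circles, replicate 1; squares, replicate 2), ordered by log2 fold change. At each interval both shIRF4 libraries lie on the same side of both controls; the widest separation is at the upstream TSPAN33 interval (3.10 and 2.53 CPM in control, 12.1 and 9.27 CPM in shIRF4).

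The 12 tetraspanins in none of those groups held 73 intervals, 5 lower (6.85%, against 15.5% of all intervals) and 7 higher (9.59%, against 7.26% of all). Their median log2 fold change was 0.06. TSPAN9, described in platelets and megakaryocytes, held most of these calls, 5 higher and 2 lower.

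The higher TSPAN9 intervals lay together in the gene body on chromosome 12, in a stretch of 29.5 kb that is bounded by the first and last of them and holds 8 intervals. They were 5 of the 26 intervals of the gene, where 7.26% of all intervals rose. The first of them (3214383 to 3215352) held 8.14 and 6.77 CPM in control and 14.1 and 12.1 CPM in shIRF4, a log2 fold change of 0.84 (SE 0.14, edgeR adjusted p = 9.28e-05). A second (3224438 to 3226077) held 13.9 and 13.5 CPM in control and 21.3 and 17.8 CPM in shIRF4, a log2 fold change of 0.54 (SE 0.11, edgeR adjusted p = 0.000882). The interval from 3243313 to 3243899 held 3.44 and 3.57 CPM in control and 6.35 and 5.13 CPM in shIRF4, a log2 fold change of 0.75 (SE 0.19, edgeR adjusted p = 0.00677). In each of these the shIRF4 libraries were above both controls, replicate 1 most. A further interval (3218659 to 3218827) held 1.09 and 1.19 CPM in control and 1.95 and 2.18 CPM in shIRF4, a log2 fold change of 0.82 (SE 0.29, edgeR adjusted p = 0.0409), and the interval from 3229334 had one of 0.34 (edgeR adjusted p = 0.0222). Only the first kept its call with each library left out. The second was lost without shIRF4 replicate 1 (adjusted p = 0.0515), the third without control replicate 1 (adjusted p = 0.0502) or shIRF4 replicate 1 (adjusted p = 0.167), and the fourth whichever library was left out (adjusted p from 0.0903 to 0.194). The fifth was lost without control replicate 1 (adjusted p = 0.071), control replicate 2 (adjusted p = 0.204) or shIRF4 replicate 1 (adjusted p = 0.228).

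Both lower TSPAN9 intervals lay at lower coordinates in the same body. The interval from 3186410 to 3187244 held 15.1 and 12.6 CPM in control and 9.61 and 8.73 CPM in shIRF4, a log2 fold change of -0.57 (SE 0.13, edgeR adjusted p = 0.00237). The interval from 3159176 to 3159352 held 4.36 and 3.65 CPM in control and 2.33 and 2.95 CPM in shIRF4, a log2 fold change of -0.65 (SE 0.23, edgeR adjusted p = 0.0435). Both shIRF4 libraries were lower in each. The former was lost without control replicate 1 (adjusted p = 0.0767), and the latter without control replicate 1 (adjusted p = 0.296), control replicate 2 (adjusted p = 0.0667), shIRF4 replicate 1 (-0.42, adjusted p = 0.401) or with totals as the only scaling (adjusted p = 0.0584).

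TSPAN2, known from myelinating glia, fell at 2 of 6 intervals on chromosome 1. The interval 9733 bp upstream (115098845 to 115099627) held 14.9 and 16.7 CPM in control and 9.45 and 11.1 CPM in shIRF4, a log2 fold change of -0.66 (SE 0.12, edgeR adjusted p = 0.000365). The body interval (115056369 to 115056654) held 4.61 and 3.57 CPM in control and 1.47 and 2.29 CPM in shIRF4, a log2 fold change of -1.21 (SE 0.26, edgeR adjusted p = 0.00128), the most negative of the 158. The groups were apart in both; without shIRF4 replicate 1 the body interval was at -0.81 and not called (adjusted p = 0.101).

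Single calls were made at TSPAN18, TSPAN11 and TSPAN3. TSPAN18, described in endothelial cells, fell at 1 of 16 intervals (chromosome 11, 44930638 to 44931271), which held 6.21 and 6.77 CPM in control and 3.85 and 4.80 CPM in shIRF4, a log2 fold change of -0.63 (SE 0.18, edgeR adjusted p = 0.0139). That interval lay in the TSPAN18 body, 1394 bp from the neighbouring gene TP53I11. TSPAN11 rose at 1 of 7 (chromosome 12, 30989596 to 30990317), which held 9.82 and 8.70 CPM in control and 12.5 and 11.0 CPM in shIRF4, a log2 fold change of 0.37 (SE 0.13, edgeR adjusted p = 0.0423). At neither did the groups overlap. TSPAN3 rose at an interval 12912 bp outside the gene on chromosome 15 (77083736 to 77084306), by a log2 fold change of 0.34 (SE 0.11, edgeR adjusted p = 0.0266). Its gene-end interval (77070377 to 77071501) held 38.7 and 39.2 CPM in control and 38.2 and 38.7 CPM in shIRF4, with overlap and a log2 fold change of -0.02 (edgeR adjusted p = 0.889). The TSPAN18 call was lost without control replicate 2 (adjusted p = 0.134) or shIRF4 replicate 1 (-0.43, adjusted p = 0.25), and the TSPAN3 call without the same libraries (adjusted p = 0.304 and 0.372). The TSPAN11 call was lost without control replicate 1 (adjusted p = 0.0771), control replicate 2 (adjusted p = 0.346) or shIRF4 replicate 1 (adjusted p = 0.34), with the replicate block (adjusted p = 0.0588) and under local scaling (adjusted p = 0.0593).

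Of the genes without a called interval, TSPAN4 had 7 intervals, with log2 fold changes from -0.28 to 0.03, and TSPAN17, of the TspanC8 subgroup, had 5, from -0.05 to 0.45. TSPAN7, known from neurons, had 2 intervals at 0.22 and 0.29, TSPAN12, which acts in Frizzled signalling of retinal vessels, 2 at 0.09 and 0.30, and TSPAN16 2 at 0.35 and 0.38. TSPAN1 (-0.09), TSPAN13 (-0.07) and TSPAN31 (0.03) had 1 interval each. At TSPAN7 and TSPAN16 both intervals were higher in both shIRF4 libraries than in both controls without passing the test. Such separation, in either direction, was common: it held at 59% of all tested intervals and at 53 of the 131 uncalled member intervals.

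Counts summed over the intervals of each gene gave 6 higher and 2 lower of 25 members, where edgeR called 13.5% of 16339 genes lower and 6.87% higher. TSPAN33 rose by a log2 fold change of 0.40 (SE 0.05, adjusted p = 6.83e-05), CD9 by 0.32 (adjusted p = 0.000955) and TSPAN5 by 0.30 (adjusted p = 0.00194). TSPAN32 followed at 0.27 (adjusted p = 0.0214), TSPAN16 at 0.35 (adjusted p = 0.0417) and TSPAN11 at 0.17 (adjusted p = 0.0475). TSPAN2, at -0.25 (edgeR adjusted p = 0.0074), and CD53, at -0.22 (edgeR adjusted p = 0.0111), fell. TSPAN16 had 2 intervals, neither called alone, 1 of which also lies in the body of RAB3D. CD37, at 0.03 (edgeR adjusted p = 0.697), and TSPAN9, at 0.13 (edgeR adjusted p = 0.0574), were not called. The calls of TSPAN33, CD9 and TSPAN5 held with each library left out. Of the members DESeq2 called TSPAN33 and CD9 alone, and gave adjusted p = 0.242 for TSPAN2 and 0.287 for CD53. The share of all genes called by DESeq2 is not given. Counting only intervals in gene bodies also ended the calls of TSPAN2 (edgeR adjusted p = 0.0878), CD53 (edgeR adjusted p = 0.0564) and TSPAN16 (edgeR adjusted p = 0.184). CD53 (adjusted p = 0.107) and TSPAN2 (adjusted p = 0.0645) were lost without control replicate 2, TSPAN32 without control replicate 1 (adjusted p = 0.152) or shIRF4 replicate 1 (0.16, adjusted p = 0.28), and TSPAN16 without control replicate 1 (adjusted p = 0.101), control replicate 2 (adjusted p = 0.207) or shIRF4 replicate 2 (adjusted p = 0.0781). TSPAN11 was lost without control replicate 1 (adjusted p = 0.0642), control replicate 2 (adjusted p = 0.38) or shIRF4 replicate 1 (adjusted p = 0.082). With the replicate block TSPAN11 (adjusted p = 0.0605) and TSPAN16 (adjusted p = 0.0515) were not called.

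**Figure D5:**
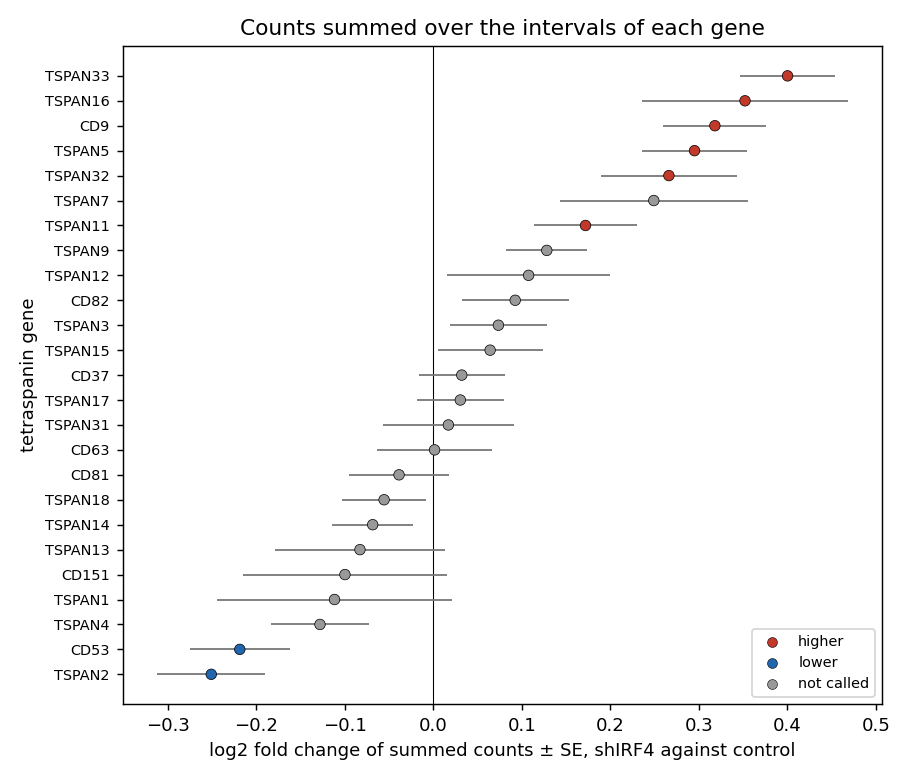
Log2 fold change, shIRF4 against control, of counts summed over the intervals of each of 25 tetraspanin genes (points) with its SE (bars). Of these, 6 were called higher by edgeR (red, led by TSPAN33 at 0.40) and 2 lower (blue, TSPAN2 at -0.25 and CD53 at -0.22).

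Genes of tetraspanin complexes outside the family were read from a list of 28 partners, 26 of which had an interval. Of their 94 intervals 13 fell (13.8%) and 6 rose (6.38%), against the background of 15.5% and 7.26%, and the median log2 fold change was 0.04. With totals as the only scaling 13 fell and 12 rose. No interval of CR2 (2) or IFITM1 (1), which are found in complexes with CD81, was called. Among sorting factors linked to CD63, AP3B1, a subunit of an endosomal adaptor, fell at 4 of 9 intervals. The lowest of these, 71614 bp from the gene on chromosome 5 (77928724 to 77929092), held 3.61 and 5.06 CPM in control and 1.25 and 1.20 CPM in shIRF4, a log2 fold change of -1.82 (SE 0.27, edgeR adjusted p = 2.59e-05). PDCD6IP, the exosome factor ALIX, fell at 1 interval by -0.80 (edgeR adjusted p = 0.000202). SOCS3, a cytokine signalling inhibitor described as a partner of CD37, fell at 4 of 15 intervals, all 13955 to 42606 bp outside the gene. The one of lowest p was at -0.76 (edgeR adjusted p = 6.53e-05), and no interval in the gene body was called.

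Among 5 integrin genes, calls lay in both directions. ITGB7 fell at 2 of 4 intervals (-0.57 at the one of lowest p, edgeR adjusted p = 0.00879). ITGA4, whose product pairs with that of ITGB7, rose at 2 of 7 (1.18 at the one of lowest p, edgeR adjusted p = 0.00153). Both called ITGA4 intervals lay outside the gene, at 37399 and 26565 bp. ITGA3 had 1 higher (1.06, edgeR adjusted p = 0.000122) and 1 lower (-0.41, edgeR adjusted p = 0.0236) of 7. ITGB1 had 1 higher of 8, 22624 bp outside the gene (0.35, edgeR adjusted p = 0.0429), and none of the 4 intervals of ITGA6 was called. In the antigen presentation group, HLA-DRB1 had 1 lower of 3, 5501 bp outside the gene (-0.53, edgeR adjusted p = 0.0084). CD74 had 1 higher of 4 (0.30, edgeR adjusted p = 0.0349). HLA-DRA had 1 higher of 3, 28747 bp outside the gene (0.46, edgeR adjusted p = 0.0243). No interval of HLA-DMA (3) or HLA-DMB (1) was called.

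The labelled cell type was read from accessibility at gene ends. All 7 B cell markers had a gene-end interval, and their summed level was 810 to 813 CPM in control and 795 to 859 CPM in shIRF4. Of 5 markers of ABC-type lymphoma 4 had one, with 198 to 202 CPM in control and 184 to 188 CPM in shIRF4. T cell markers summed to 38.8 to 43.4 and 36.4 to 36.5 CPM, with 2 of 6 having an interval and CD3D, CD3G, CD2 and TRAT1 none. These 2 went opposite ways. CD3E had 1.93 and 2.01 CPM in control and 4.29 and 3.16 CPM in shIRF4 and was called higher. CD8A, with an interval called lower among its 3, had 41.4 and 36.8 CPM in control and 32.1 and 33.4 CPM in shIRF4. NK cell markers summed to 337 to 347 and 293 to 320 CPM, all of it from NKG7 and NCR1, as KLRD1 and KLRF1 had no interval. NKG7 had 277 and 272 CPM in control and 248 and 266 CPM in shIRF4 and was not called. NCR1 had 70.3 and 65.8 CPM in control and 45.1 and 54.2 CPM in shIRF4 and was called lower. Whether these 2 gene ends reflect NK cells was not tested. Myeloid markers (1 of 5) lay at 8.89 to 9.52 and 8.29 to 8.58 CPM, and epithelial ones (1 of 5) at 22.1 to 22.5 and 16.0 to 18.3 CPM. Among the remaining markers, CD79A and CD22 each had an interval called higher, and BLK, PIM1 and CDH1 each had an interval called lower. The part of these levels in the tetraspanin changes was not tested, and in bulk libraries fewer cells with an open interval and less opening per cell cannot be told apart.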

How the data were processed

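Read counts over merged intervals were deposited. The authors made them with featureCounts 2.0.0 from the 5′ ends of paired reads, ignoring duplicates, per the file headers. The build was hg38 according to the submitters' processing notes; aligner and peak caller: not given in the sources used here.

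Counts of all 73135 intervals were analysed in R 4.3.3 with edgeR 4.0.16: filterByExpr kept 73028, TMM factors (0.981 to 1.03) scaled the libraries, and control was compared with shIRF4 by the two-sided quasi-likelihood test with Benjamini-Hochberg adjustment at 0.05. Library sizes were kept as totals over all intervals, after a first fit that had reset them to the filtered intervals. "Rose", "fell", "higher" and "lower" as calls mean past that threshold. SEs of log2 fold changes were derived from F (absolute change over root F). DESeq2 1.42.0, other scalings, filters and assignments, a replicate block and leaving out each library were alternatives. Log2 CPM correlated at 0.984 within control, 0.977 within shIRF4 and 0.927 to 0.941 between groups. Same-numbered libraries showed no shared deviation (correlation of same-numbered differences -0.026). With 2 libraries per group this cannot show whether they were prepared in pairs.

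Gene ends came from a RefSeq table without exons. For member genes every gene body holding a midpoint counted, a choice made when assignment to 1 gene left CD37 without an interval. A gene-end interval of a member has its midpoint within 1 kb of either gene end, spans that end, or lies over a promoter window. For the cell type markers any part of the interval within 1 kb of a gene end sufficed. Library values of members are given, by rule, for the 25 called member intervals with the largest change and for the most abundant gene-end interval of 11 chosen genes. Of those genes CD81 had no such interval. Outside that rule they are given for the CD81 interval from 2376776 and the uncalled TSPAN33 interval from 129168871. The members and all lists were chosen with earlier results of these data known. The separate values of 1 gene of these lists are not reported here.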

Additional observations from a re-analysis of the deposited data

How the results depend on the processing

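Of the 27 called member intervals, 1 was called under every alternative (the upstream TSPAN33 interval), and 8 under all but DESeq2 and the test against a 1.5-fold change. No called member interval or summed member gene changed sign under any alternative tried. Of the uncalled ones among the most abundant gene-end intervals of the chosen genes, 4 changed sign and were not called on either side of 0. The log2 fold change of CD63 (0.03) went to -0.00552 under local scaling and ranged from -0.0805 to 0.105 with a library left out. With totals alone TSPAN3 (-0.02) went to 0.0284, CD53 (-0.04) to 0.0126 and TSPAN14 (-0.01) to 0.0396, and TSPAN14 to 0.0543 under local scaling. With a library left out these ranged from -0.0294 to 0.00273, -0.151 to 0.0379 and -0.0152 to 0.000479. DESeq2 left 2 lower and 4 higher member intervals, and the test against 1.5-fold 0 and 1. The DESeq2 calls were 2 intervals of TSPAN33 and 1 each of CD9, TSPAN9, TSPAN2 and TSPAN14. With 1 library left out, 6 to 12 member intervals were lower and 6 to 23 higher; 8 of the 27 kept their call each time. Summed per gene, DESeq2 called 0 lower and 2 higher, counts in gene bodies alone gave 0 lower, and leaving out a library gave 0 to 3 lower and 3 to 7 higher. For counts of genes under these alternatives no share over all genes is given, so they have nothing to be set against. Of partner intervals, DESeq2 called 6 lower and 1 higher, totals alone 12 higher, and leaving out a library gave 9 to 17 lower and 1 to 12 higher. With the replicate block there were 10 lower and 18 higher member intervals, 2 lower and 4 higher genes, and 13 lower and 6 higher partner intervals. Nothing in the sample titles says whether the replicate numbers mark pairs. Leaving out intervals in a second gene body, an alternative chosen after seeing the data, gave 9 lower and 16 higher of 153. The cause of these differences was not tested. Read counts as low as 13 in a member interval limit the precision at the weakest intervals, and n = 2 per group limits all.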
